A study of Mus musculus with 15 samples.

Results

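Of 26366 genes in the deposited table, 9 that serve antigen presentation by MHC class II were followed through 15 RNA sequencing libraries of mouse eosinophils. They encode the invariant chain (Cd74), the chains of the class II molecules I-A (H2-Aa and H2-Ab1) and I-E (H2-Ea and H2-Eb1), the chains of the loading molecule H2-DM (H2-DMa, H2-DMb1 and H2-DMb2) and the regulator Ciita. They were chosen by function, after Cd74 and H2-Ab1 had been seen to be higher in the esophagus than in the colon in these same libraries, so that difference is given below as a description without a p-value. In GENCODE M21, Cd74 (ENSMUSG00000024610.16 in the table) lies on chromosome 18, Ciita (ENSMUSG00000022504.11) on chromosome 16 and the other 7 genes, among them H2-Aa (ENSMUSG00000036594.16) and H2-Ab1 (ENSMUSG00000073421.7), on chromosome 17. Each gene has 1 row in the table. Of the 9, 6 had enough counts to be tested, and H2-DMa, H2-DMb1 and H2-DMb2 did not.

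The cells came from 7 wild-type C57/BL6 mice that had all received 4-NQO (4-nitroquinoline 1-oxide, a carcinogen of the mouth and esophagus) for 8 weeks and its vehicle propylene glycol for another 8 weeks, a state labelled pre-cancer. Esophageal eosinophils were taken from all 7 mice, and colonic and bone marrow eosinophils from mice 5, 6, 7 and 8, which gives groups of 7, 4 and 4 libraries. Cells of esophagus and colon were taken from the lamina propria by immunomagnetic positive selection, and the labels do not say whether those called bone marrow-derived were isolated or cultured. Mice 1, 2, 5 and 6 are F and shared cage 1, mice 3, 7 and 8 are M and shared cage 2, no age is given, and no untreated mice are among the libraries.

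Class II molecules show peptides from the endosome to CD4+ T cells. An alpha and a beta chain pair in the endoplasmic reticulum with the invariant chain, which fills the peptide groove and directs the complex to the endosome, where H2-DM exchanges the remnant of the invariant chain for a peptide. CIITA is the co-activator without which these genes are hardly transcribed in dendritic cells, macrophages and B cells; it binds no DNA itself and acts through RFX, CREB and NF-Y on the X and Y boxes of their promoters. Eosinophils are granulocytes that carry little class II at rest and have been described to display it after exposure to cytokines such as GM-CSF.

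The promoters are shown because those boxes are described for class II genes. None was available for Cd74, H2-Ab1, H2-Ea and Ciita. RefSeq (GRCm38.p6) promoters matched 5 of the 9 genes by symbol, and 4 of them held a Y box together with an X box core or a cyclic AMP response element. Each sequence is the 150 bases before the start of the gene, on the gene's strand, with the motif matches in capitals.
H2-Aa (chr17:34287824-34287973, minus strand): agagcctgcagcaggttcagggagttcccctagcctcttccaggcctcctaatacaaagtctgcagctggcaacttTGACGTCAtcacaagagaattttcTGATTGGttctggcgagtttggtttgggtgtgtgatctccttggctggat
H2-Eb1 (chr17:34305717-34305866, plus strand): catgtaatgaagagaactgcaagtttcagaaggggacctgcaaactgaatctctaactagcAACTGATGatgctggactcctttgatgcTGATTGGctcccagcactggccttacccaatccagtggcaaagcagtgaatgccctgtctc
H2-DMb1 (chr17:34153041-34153190, plus strand): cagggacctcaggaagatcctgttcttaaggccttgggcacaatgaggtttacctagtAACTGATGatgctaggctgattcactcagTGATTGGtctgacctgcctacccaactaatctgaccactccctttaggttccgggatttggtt
H2-DMb2 (chr17:34145099-34145248, plus strand): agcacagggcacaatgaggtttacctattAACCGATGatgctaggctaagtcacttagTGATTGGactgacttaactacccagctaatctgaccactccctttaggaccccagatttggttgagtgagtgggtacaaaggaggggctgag

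The letters searched, on both strands, were AACNGATG for the X box core, TGACGTCA for the cyclic AMP response element and TGATTGG, an inverted CCAAT, for the Y box, and they were chosen after these promoters had been read. In H2-DMb1 and H2-DMb2 the X box core began 29 bases before the Y box, in H2-Eb1 28 bases before it, and in H2-Aa the cyclic AMP response element began 24 bases before it. The matches did not overlap one another. Among 32544 promoters of the same table, 2.32% held the X box core, 1.80% the cyclic AMP response element, 7.80% the Y box, and 0.181% both an X box core and a Y box. The promoters listed for H2-DMa held none of the 3 motifs. A match is a description of the letters and not a site shown to be bound.

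The libraries were shallow, with total counts of 85677 to 371218 in the esophagus, 227179 to 612386 in the colon and 189060 to 286166 in the bone marrow. Levels are given as CPM, each count scaled to the effective size of its library and not to gene length. For a gene at 0, levels of up to 3 counts cannot be told from none, and these correspond to 10.6 to 36.0 CPM for esophagus, 6.86 to 17.1 for colon and 14.4 to 27.4 for bone marrow. These limits cover counting error only. Mitochondrial genes held 3.87% and 2.84% of the counts in the esophagus libraries of mice 1 and 3 and 7.52% in the colon library of mouse 8, against 0.297% to 1.0% elsewhere. Of 10 eosinophil markers 1 passed the count filter. Epx and Ear2 were at 0 in every esophagus library, and Prg2 and Prg3 were at 0 in every bone marrow library. Over the same libraries Cd74 had 364 counts in the esophagus and 98 in the bone marrow. These markers thus do not establish the eosinophil label, and the cells are called eosinophils here after that label. Why the markers were so low was not tested.

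Cd74, the invariant chain, was higher in esophageal than in colonic eosinophils in every pair of libraries, and bone marrow lay between. In esophagus it had 68, 38, 86, 58, 39, 34 and 41 counts in mice 1, 2, 3, 5, 6, 7 and 8, which is 134 to 867 CPM with a median of 257. In colon, mice 5, 6, 7 and 8 had 5, 2, 11 and 33 counts, or 12.3, 11.4, 25.2 and 84.1 CPM. In bone marrow the same mice had 11, 44, 28 and 15 counts, or 93.0, 402, 135 and 85.5 CPM. Every esophagus and bone marrow library thus lay above every colon library, while esophagus overlapped with bone marrow, and the highest colon and bone marrow values came each from a single library, mouse 8 in the colon and mouse 6 in the bone marrow. In bulk samples such as these, fewer cells of a type and less RNA per cell cannot be told apart.

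The unscaled Cd74 counts of esophagus and colon, which are among the values that prompted the choice of the genes, are given as a description. The esophagus libraries held 34 to 86 Cd74 counts at 85677 to 371218 total counts, and the colon libraries 2 to 33 at 227179 to 612386. The lowest esophagus and the highest colon library were thus 1 count apart. For H2-Aa and H2-Ab1 the raw counts of the groups overlapped.

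**Figure D1:**
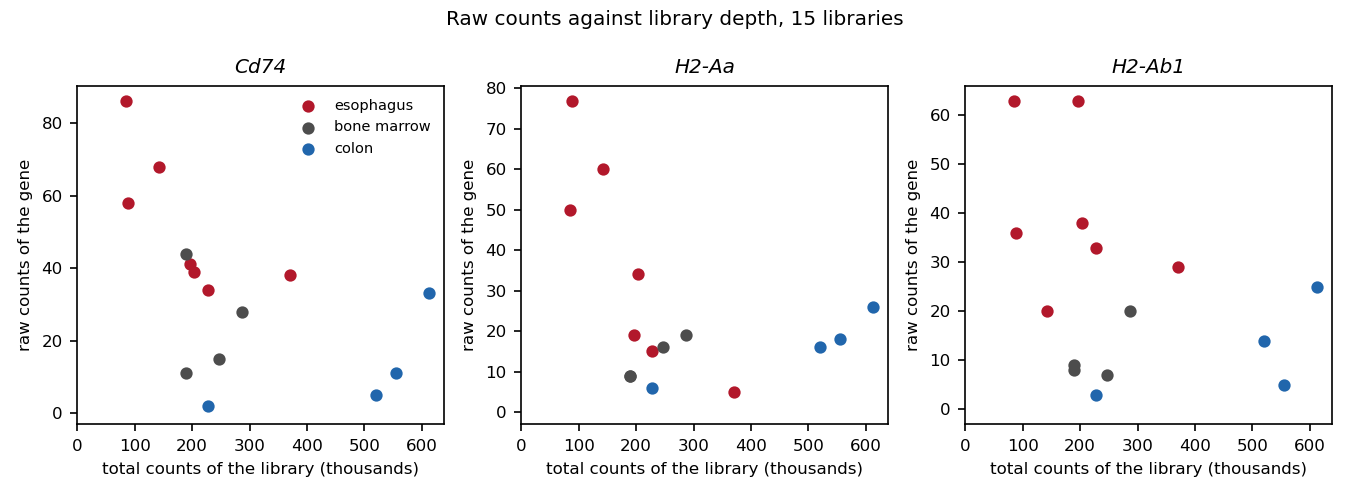
Raw counts of Cd74, H2-Aa and H2-Ab1 (vertical axis) against the total count of the library (horizontal axis), 1 point per library, coloured by site. The 7 esophagus points of Cd74 lie at 34 to 86 counts and the 4 colon points at 2 to 33 counts and 3 of these 4 libraries have larger totals than any other library.

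H2-Aa, the alpha chain of I-A, ranged widely in the esophagus and narrowly at the other sites. In esophagus, mice 1, 2, 3, 5, 6, 7 and 8 had 60, 5, 50, 77, 34, 15 and 19 counts, that is 17.6 to 924 CPM with a median of 211. Colon libraries of mice 5, 6, 7 and 8 had 39.2, 34.2, 41.2 and 66.3 CPM, and bone marrow libraries 76.1, 82.3, 91.5 and 91.2 CPM. All 4 bone marrow libraries lay above all 4 colon libraries, and the esophagus library of mouse 2 lay below every library of either site.

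H2-Ab1, the beta chain that pairs with H2-Aa, was the member whose esophagus libraries lay above all others. It had 20, 29, 63, 36, 38, 33 and 63 counts in the esophagus of mice 1, 2, 3, 5, 6, 7 and 8, which is 102 to 635 CPM with a median of 235. Colon had 34.3, 17.1, 11.4 and 63.7 CPM in mice 5, 6, 7 and 8, and bone marrow had 67.6, 82.3, 96.3 and 39.9 CPM. The lowest esophagus library, at 102 CPM, was above the highest bone marrow library, at 96.3 CPM, by a small margin, and colon and bone marrow overlapped.

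H2-Eb1, the beta chain of I-E, did not separate the sites. It was at 0 counts in the esophagus of mouse 5 and in the bone marrow of mouse 5, and reached 403 CPM in the esophagus of mouse 3. The esophagus median was 85.3 CPM, the colon libraries had 11.4 to 58.6 CPM, and the bone marrow libraries other than that of mouse 5 had 79.8 to 96.3 CPM. In the annotation an antisense gene, Gm20513, overlaps H2-Eb1, and since it is not stated whether the counting used strand, reads of the pair cannot be told apart.

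H2-Ea, the alpha chain of I-E, is annotated as a polymorphic pseudogene. C57BL/6 mice are known to carry a haplotype in which its promoter is deleted and no I-E molecule is made. The table nevertheless assigns counts to it. In esophagus, mice 1, 2, 3, 5, 6, 7 and 8 had 19, 0, 30, 59, 30, 31 and 2 counts, or 139, 0, 302, 708, 186, 176 and 12.6 CPM. Colon libraries had 0, 0, 4 and 5 counts in mice 5, 6, 7 and 8, and bone marrow libraries 4, 4, 5 and 0, the latter at most 36.6 CPM. Thus 5 of the 7 esophagus libraries lay above every colon and bone marrow library and the other 2 overlapped with them. What these counts came from was not tested.

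The H2-DM genes were near the limit of detection. H2-DMa had 22 counts (125 CPM) in the esophagus of mouse 7 and 0 to 8 in the other 6 esophagus libraries, 2 to 18 counts in the colon and 2 to 16 in the bone marrow. H2-DMb1 had 0 to 17 counts in the esophagus, 0 to 6 in the colon and 0 to 8 in the bone marrow, and H2-DMb2 had 0 to 6, 0 to 12 and 0 to 4. For each of the 3 genes the groups overlapped. H2-DMb1 and H2-DMb2 are near-identical copies between which the counting may have split reads, and H2-DMa overlaps other annotated genes, Brd2 on the opposite strand among them, so their values are uncertain.

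Ciita, the regulator of the other genes, did not separate the sites. It had 0, 35, 0, 3, 3, 13 and 20 counts in the esophagus of mice 1, 2, 3, 5, 6, 7 and 8, the counts of 0 in mice 1 and 3 allowing up to 21.9 and 30.2 CPM. Colon libraries of mice 5, 6, 7 and 8 had 113, 91.2, 114 and 79.0 CPM, and bone marrow libraries 76.1, 45.7, 91.5 and 143 CPM. The means were 53.9 ± 54.3 CPM (SD, n = 7) in the esophagus, 99.3 ± 17.1 (n = 4) in the colon and 88.9 ± 40.5 (n = 4) in the bone marrow. The 3 groups overlapped, and the colon libraries lay closest together. The gene overlaps Dexi on the opposite strand.

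**Figure D2:**
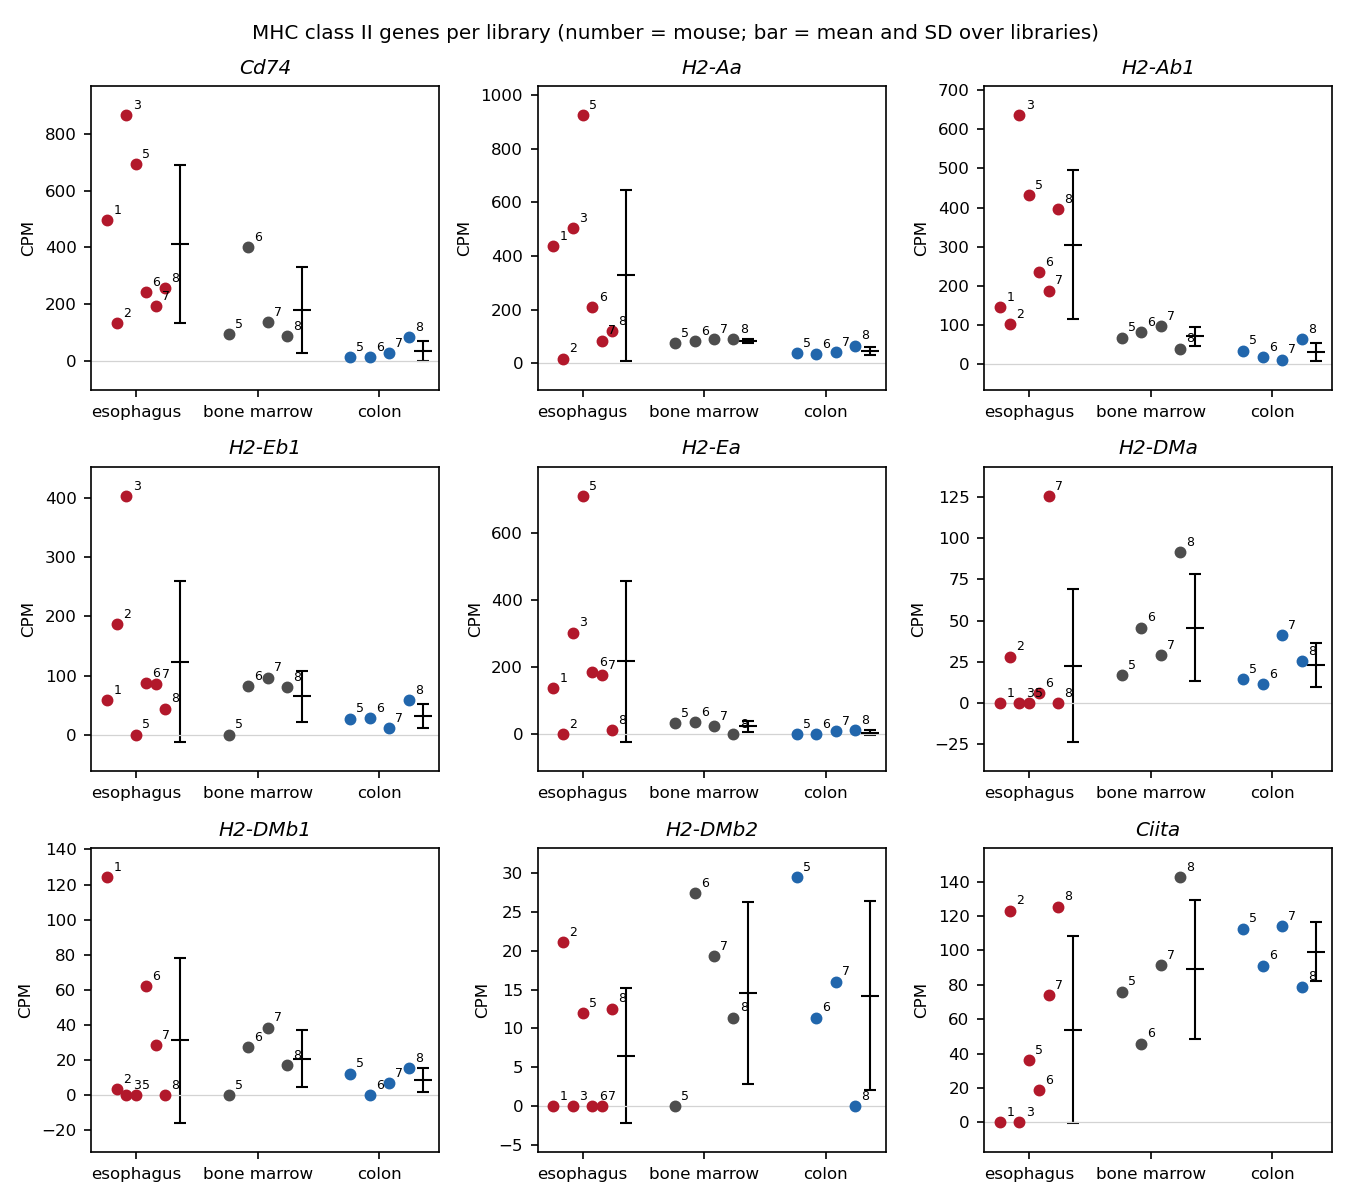
CPM of each of the 9 genes in every library, 1 panel per gene, with the site on the horizontal axis, the mouse number beside each point, and the mean with its SD. Cd74 and H2-Ab1 in the esophagus lie above all colon points, while Ciita lies at 79.0 to 114 CPM in the colon and at 0 to 126 CPM in the esophagus.

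Set per length, Cd74 in esophagus and bone marrow libraries stood above the counts that fall on genes not known to act in these cells. As a measure of such counts, 1422 olfactory and vomeronasal receptor genes, which act in sensory neurons, were used, and their 95th percentile in CPM per exonic kilobase was 43.5 to 60.9 in the esophagus, 29.7 to 45.0 in the colon and 35.7 to 44.6 in the bone marrow. Cd74 had 245 ± 167 CPM per kilobase (SD, n = 7) in the esophagus, 19.8 ± 20.5 (n = 4) in the colon and 107 ± 89.6 (n = 4) in the bone marrow. It was above the percentile of its own library in 7 of 7 esophagus and 4 of 4 bone marrow libraries, and in 1 of 4 colon libraries, that of mouse 8. In the other 3 colon libraries Cd74 could not be told from those genes.

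The chains exceeded the same percentile mostly in the esophagus. H2-Ab1 did so in 5 of 7 esophagus libraries, 0 of 4 colon and 1 of 4 bone marrow libraries, and H2-Ea in 5, 0 and 0. H2-Aa was above it in 4 esophagus libraries and none elsewhere, and H2-Eb1 in 2 of esophagus, 0 of colon and 2 of bone marrow. H2-DMb1 was above it in 1 esophagus library, that of mouse 1, and H2-DMa, H2-DMb2 and Ciita in 0 of 15 libraries. Ciita had 5.65, 10.4 and 9.33 CPM per kilobase on average in the esophagus, colon and bone marrow, so its levels were within the range of the receptor genes at all 3 sites.

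**Figure D3:**
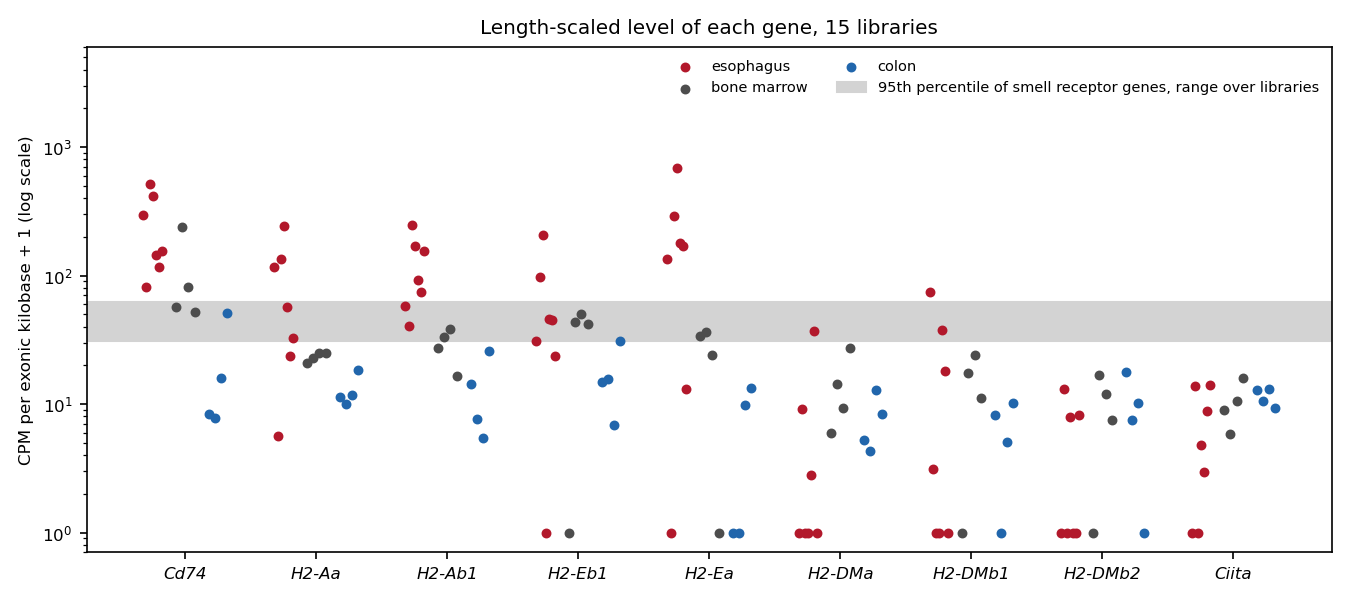
CPM per exonic kilobase plus 1 on a log axis for each of the 9 genes and each library, coloured by site, with a grey band for the range over the 15 libraries of the receptor genes' 95th percentile (29.7 to 60.9). The 7 esophagus points of Cd74 (79.7 or more) lie above the band, its bone marrow points begin within it at 50.9, and all points of H2-DMb2 and Ciita lie below it.

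Esophageal against bone marrow eosinophils was the comparison that the study's groups imply for tissue against origin, and it shares its esophagus libraries with the choice of the genes. At an adjusted p under 0.05 in edgeR's quasi-likelihood test, 0 of the 6 tested genes passed. Of all 10357 genes tested 0.83% did, 2 genes higher and 84 lower in the esophagus. At an unadjusted p under 0.05 it was 4 of the 6, beside 4.59% of all genes, and DESeq2 called 1 of the 6, H2-Ab1, beside 1.02% of all. The log2 fold change was 3.20 for H2-Ea (SE 1.02, edgeR adjusted p = 0.179), while H2-Ab1 was at 2.07 (SE 0.68, 0.203), H2-Aa at 1.91 (SE 0.66, 0.281) and Cd74 at 1.20 (SE 0.55, 0.903). For H2-Eb1 it was 0.91 (SE 0.90) and for Ciita -0.68 (SE 0.87), both with an edgeR adjusted p of 0.999. The filter asks for 4 libraries at or above a limit in CPM, which H2-Ea reached in 5 esophagus libraries and 0 others, and H2-Ab1 and H2-Eb1 in 2 and 3 libraries outside esophagus. These 3 genes were tested only because of their esophagus levels, so nothing is read from the counts over the 6, and the fold change of H2-Ea rests on 0 to 5 counts per bone marrow library.

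The values of 1 gene did not overlap. H2-Ab1 was higher in every esophagus than in every bone marrow library, as were 0.0579% of all genes tested. Its esophagus values had prompted the choice of the genes and carried it through the filter. Nothing is therefore read from this share or from the p-values of H2-Ab1 below. With scaling by library size alone, which moved the median of all genes from -0.18 to 0.21, H2-Aa (edgeR adjusted p = 0.0282) and H2-Ab1 (0.0161) passed, beside 0.676% of all genes tested. Over all alternatives tried, leaving out libraries included, the adjusted p of H2-Ab1 was 0.0161 to 0.80 and that of H2-Aa 0.0282 to 1.0. The log2 fold change of H2-Aa was between 0.10 and 2.44 in these, the lowest under limma voom with quality weights, in which libraries that vary more count less.

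Colonic eosinophils had lower Cd74 values than bone marrow eosinophils in every pair of libraries, and the difference did not pass the test. These colon libraries took part in the choice of the genes, for which Cd74 and H2-Ab1 had been seen to be lower there than in esophagus, so the comparison is not independent of it. The log2 fold change of Cd74 was -2.35 (SE 0.64, edgeR adjusted p = 0.0655). Of the 6 tested genes 0 passed, beside 0.434% of all genes tested, with 1 of 6 at an unadjusted p under 0.05 beside 2.11% of all, and 0 of 6 with DESeq2 beside 0.792% of all. The 2 genes whose colon libraries all lay below all bone marrow libraries were Cd74 and H2-Aa, and 3.53% of all genes tested did so. The other log2 fold changes were -0.90 (SE 0.71) for H2-Aa, -1.14 (SE 0.73) for H2-Ab1, -1.82 (SE 1.14) for H2-Ea, -1.04 (SE 1.0) for H2-Eb1 and 0.15 (SE 0.98) for Ciita, each with an edgeR adjusted p of 1.0.

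The Cd74 difference between colon and bone marrow depended on single libraries. The colon library of mouse 8 is the one with 7.52% mitochondrial counts. In it 9 markers of colon epithelium summed to 1791 CPM, against 279 to 326 in the other colon libraries. Without that library the Cd74 difference was -3.34 (edgeR adjusted p = 0.00371). It also passed when mouse 5, 7 or 8 was left out of the bone marrow group (edgeR adjusted p = 0.0397, 0.0454 and 0.0264), at -2.55, -2.45 and -2.58. Without the bone marrow library of mouse 6, which had the highest bone marrow level, it was -1.59 (edgeR adjusted p = 1.0). With mouse as a fixed block it was -2.34 and did not pass (edgeR adjusted p = 0.272).

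Between esophagus and colon, the comparison on which the genes were chosen, the log2 fold changes were 5.02 (SE 1.11) for H2-Ea, 3.56 (SE 0.63) for Cd74, 3.21 (SE 0.72) for H2-Ab1, 2.81 (SE 0.68) for H2-Aa, 1.95 (SE 0.94) for H2-Eb1 and -0.83 (SE 0.85) for Ciita. Colon levels of H2-Ea were at or near the floor, so the size of its fold change depends on how the fit treats counts of 0. Of the 6, Cd74, H2-Ab1 and H2-Ea passed the edgeR threshold, beside 0.0676% of all genes tested that passed in that direction, and Cd74 and H2-Ab1 were higher in every esophagus than in every colon library, beside 0.0579%. Since the choice used this contrast, nothing is read from these counts. With mouse as a fixed block the count was 1, H2-Ab1, and with mouse as a random effect it was 1, Cd74. Without the esophagus library of mouse 3 or of mouse 5 it was 1, Cd74. H2-Ab1 was also lost without the esophagus library of mouse 8 or the colon library of mouse 5, 6 or 7, and H2-Ea without the esophagus library of mouse 1, 6 or 7. H2-Aa passed without the esophagus library of mouse 2 or the marrow library of mouse 6, 7 or 8. Over all such omissions the log2 fold changes of H2-Ab1, H2-Ea and H2-Aa were 2.87 to 3.75, 4.37 to 5.62 and 2.30 to 3.05.

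**Figure D4:**
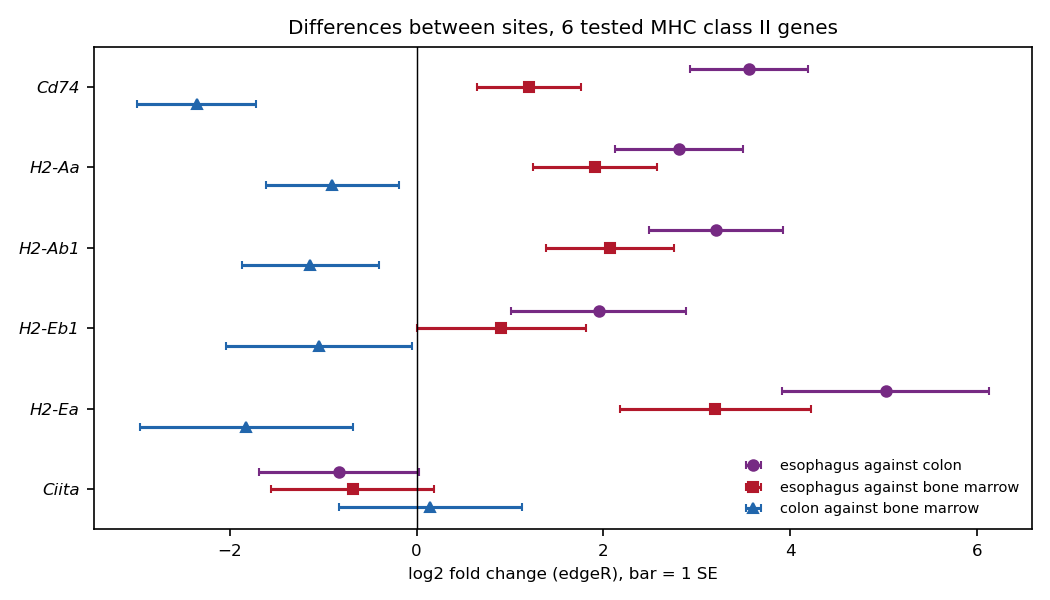
Log2 fold changes of the 6 tested genes with bars of 1 SE, for esophagus against bone marrow, colon against bone marrow and esophagus against colon. The comparisons share libraries, and Ciita lies at -0.83 to 0.15 in all 3, while Cd74 lies at 1.20, -2.35 and 3.56.

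Mice 5 to 8 gave all 3 sites, so each could be compared with itself. H2-Ab1 and the sum of the 9 genes were higher in the esophagus than in the bone marrow in 4 of 4 mice, H2-Ea was so in 4 of 4, and Cd74 and H2-Aa in 3 of 4, the exceptions being mouse 6 for Cd74 (242 against 402 CPM) and mouse 7 for H2-Aa (85.3 against 91.5 CPM). It was so for H2-DMb2 in 2 of 4 mice, and for H2-Eb1, H2-DMa and H2-DMb1 in 1 of 4. Bone marrow was above colon in 4 of 4 mice for Cd74 and H2-Aa and in 3 of 4 for H2-Ab1, H2-Eb1, H2-Ea and the 3 H2-DM genes. Ciita was higher in the esophagus than in the bone marrow in 0 of 4 mice and higher in the bone marrow than in the colon in 1 of 4. With 4 mice these orders are counts and carry no test.

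**Figure D5:**
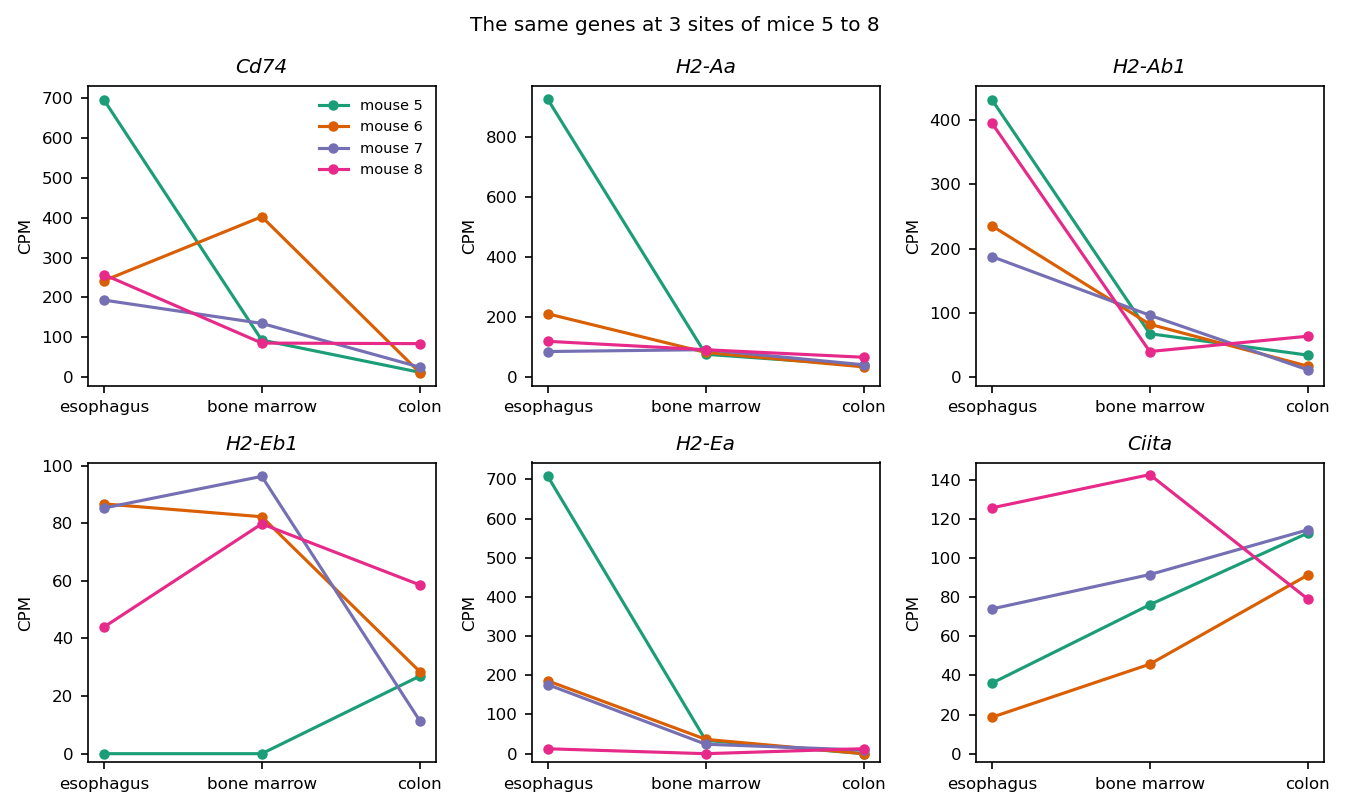
CPM of Cd74, H2-Aa, H2-Ab1, H2-Eb1, H2-Ea and Ciita in the colon, bone marrow and esophagus of mice 5, 6, 7 and 8, with a line joining the libraries of a mouse. H2-Ab1 is higher in the esophagus than at the other sites in all 4 mice, and Ciita is higher in the bone marrow than in the esophagus in all 4.

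M and F mice, which are also the 2 cages, were compared with limma voom across tissues. Of the 6 tested genes 0 passed, beside 0.463% of all genes tested, and 0 of the 6 had an unadjusted p under 0.05, beside 2.35% of all. The log2 fold changes of M against F were 0.13 (SE 0.73) for Ciita to 1.04 (SE 0.93) for H2-Ea, with limma adjusted p = 1.0 for all 6, and the median was 0.75, beside -0.05 over all genes. A test of whether the tissue differences depended on sex gave an edgeR adjusted p of 1.0 for all 6 genes, and 0.0483% of all genes tested passed. At an unadjusted p under 0.05 it was 1 of the 6, Cd74 (unadjusted p = 0.0490 in edgeR), beside 2.18% of all.

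Summed, the 9 genes held 154 to 269 counts in each esophagus library, 36 to 159 in the colon and 43 to 129 in the bone marrow. As a share of all counts this was 0.0471% to 0.314% in the esophagus, 0.0158% to 0.0260% in the colon and 0.0227% to 0.0481% in the bone marrow. The summed level was 1501 ± 890.1 CPM (SD, n = 7) in the esophagus, 292 (range 205 to 405, n = 4) in the colon and 594 ± 193 (n = 4) in the bone marrow. The highest sums, of 2807, 2712 and 1401 CPM, came from the esophagus libraries of mice 5, 3 and 1, which are also the 3 libraries with the fewest counts, and the part of depth in this order was not tested.

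The make-up of the summed CPM, which is not scaled to gene length, is given as a description. Cd74 made up 26.3% ± 5.57 of the summed CPM in the esophagus (SD, n = 7), 9.94% ± 7.49 in the colon (n = 4) and 27.7% ± 14.4 in the bone marrow (n = 4). The 4 chain genes made up 61.5% ± 8.63, 37.7% ± 9.59 and 42.6% ± 7.84. Ciita made up 6.25% ± 7.74, 36.3% ± 11.4 and 16.7% ± 8.66. The esophagus and colon ranges of the Ciita share, 0% to 20.0% and 19.5% to 44.4%, met at their edges.

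Genes around the pathway did not pass any tissue test. A list of 18 further class II genes holds the RFX subunits, NF-Y and CREB factors, the proteases and thiol reductase that prepare peptides and the invariant chain, the H2-O chains, and the MARCH ligases that remove class II from the surface. Of these, 11 were tested and 0 passed in any of the 3 tissue comparisons with edgeR. Of all genes tested, 0.83% passed for esophagus against bone marrow, 0.434% for colon against bone marrow, and 9 of 10357 genes for esophagus against colon. At an unadjusted p under 0.05 it was 1, 0 and 0 of the 11 in this order, beside 4.59% and 2.11% of all genes for the comparisons with bone marrow. With a list this short, counts near these shares are not read as a result about its genes. The median log2 fold changes of the 11 were -0.06, -0.32 and -0.10, beside -0.18, 0.02 and -0.21 over all genes. The 1 gene was Nfyb, a subunit of NF-Y, at -2.78 (SE 1.06, edgeR adjusted p = 0.473) in the esophagus against bone marrow. Creb1, a factor of the X box, had 194 ± 172 CPM (SD, n = 7) in the esophagus, 212 ± 39.3 (n = 4) in the colon and 205 ± 59.7 (n = 4) in the bone marrow. Sppl2a, the protease that clears the last fragment of the invariant chain, had 175 ± 104, 126 ± 17.9 and 138 ± 51.7 CPM. Of the ligases, Marchf8 ranged over 0 to 348, 85.5 to 133 and 62.7 to 101 CPM, and Marchf1 had 93.5 ± 86.1, 88.1 ± 50.3 and 109 ± 18.2 CPM, in the same order of sites. For these 4 genes the esophagus range took in the means of the other sites.

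Among the enzymes that prepare peptides in the endosome, Ifi30, the lysosomal thiol reductase, and Lgmn, a protease, were at 0 counts throughout esophagus, where 3 counts would be 10.6 to 36.0 CPM. In colon, Ifi30 was detected in mouse 8 alone, with 20 counts, and it had 2, 1, 8 and 4 counts in the bone marrow of mice 5, 6, 7 and 8. Lgmn had 4, 0, 12 and 22 counts in the colon and 0, 10, 2 and 5 in the bone marrow. Neither passed the filter, and at this depth the counts of 0 in the esophagus are not a tested difference.

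MHC class I, the pathway that shows peptides from the cytosol, gave 0 calls among its 4 tested genes in the 3 tissue comparisons with edgeR. Of all genes tested, 0.83% passed for esophagus against bone marrow and 0.434% for colon against bone marrow, so 0 of 4 is near those shares. At an unadjusted p under 0.05 it was 2, 0 and 0 of the 4, beside 4.59% and 2.11% of all genes for the comparisons with bone marrow. For esophagus against bone marrow, B2m, the light chain of class I, had a log2 fold change of 3.01 (SE 1.18, edgeR adjusted p = 0.532), Tap1, a peptide transporter, 1.78 (SE 0.88), H2-K1, a heavy chain, 0.83 (SE 0.83) and H2-D1, another heavy chain, -0.50 (SE 0.98). B2m levels were 93.0 ± 121 CPM in the esophagus (SD, n = 7), 50.3 ± 88.8 in the colon (n = 4) and 10.6 ± 5.94 in the bone marrow (n = 4), and those of H2-K1 were 152 ± 214, 46.6 ± 18.6 and 84.7 ± 55.6. The spread within esophagus and within colon was thus larger than the mean for B2m. Of 8 genes that carry the interferon gamma signal to Ciita 3 were tested, and of 4 costimulatory genes 1, with 0 calls beside the same shares of all genes. For esophagus against bone marrow the log2 fold changes were 0.21 (SE 0.92) for the kinase Jak1, -0.74 (SE 0.94) for the transcription factor Irf8 and 1.36 (SE 1.14) for Cd80, a ligand of CD28.

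Class II is also made by other cells of these tissues, and their markers were read in the same libraries. The 12 macrophage and monocyte markers, of which 4 passed the filter, summed to 408 to 972 CPM in the esophagus, 285 to 403 in the colon and 270 to 622 in the bone marrow, with every esophagus library above every colon library and none of the 12 at 0 throughout a site. The lowest esophagus sum, 408 CPM, was close to the highest colon sum, 403 CPM. Their highest esophagus sum was in mouse 5 and their highest bone marrow sum in mouse 6, the library with the highest bone marrow Cd74. In the esophagus library of mouse 3, which had the highest Cd74, they summed to 433 CPM, near the lowest esophagus sum. The 10 dendritic cell markers, 3 of which passed, summed to 10.1 to 818, 357 to 429 and 238 to 549 CPM, and the esophagus library of mouse 3, with the highest Cd74, had 1 of the 10 detected. The 8 B cell markers, 3 of which passed, summed to 36.5 to 625, 390 to 519 and 347 to 510 CPM. In bone marrow, the 9 colon epithelium markers summed to 347 to 473 CPM and the 7 squamous epithelium markers to 174 to 279 CPM. Sums of this size are therefore not read as the presence of a cell type. Among the tested macrophage and monocyte markers, Ly6c2, a surface protein of monocytes, had 68.2 to 314 CPM in the esophagus and 5.70 to 54.9 in the bone marrow, so that every esophagus library lay above every bone marrow library, as for H2-Ab1. Its log2 fold change was 2.48 (SE 0.91, edgeR adjusted p = 0.371). Against colon it was 1.03 (SE 0.80), and the libraries overlapped. Lyz2, the lysozyme of myeloid cells, had 14.6 to 300 CPM in esophagus and 5.70 to 29.4 in colon libraries, a log2 fold change of 2.52 (SE 0.99, edgeR adjusted p = 1.0). For esophagus against bone marrow Lyz2 was at 1.24 (SE 0.94), and the libraries overlapped. The other tested markers of that list were Csf1r and Mrc1. Esophagus against bone marrow gave log2 fold changes of 0.37 (SE 1.03) and 0.15 (SE 1.06), and against colon 0.60 (SE 1.01) and -0.46 (SE 1.01). Among untested markers, Adgre1, C1qa, Cd14, Fcgr1 and Mertk had lower mean CPM in esophagus than in bone marrow, and C1qb, C1qc and Cd68 higher. Against colon, Fcgr1 and Mertk had lower mean CPM in esophagus, and Adgre1, C1qa, C1qb, C1qc, Cd14 and Cd68 higher. For each of these untested markers the SD within esophagus exceeded the mean. Single markers were named after their values were seen. The part of macrophages and monocytes in the class II levels was not tested.

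The 5 tested genes whose order over the 15 libraries was most like that of the summed class II CPM were Malat1 (Spearman's rho 0.79), Rn18s (0.775), Il1b (0.746), Ncald (0.743) and Fth1 (0.718). The libraries share depth and scaling, so these are descriptions. Il1b, which encodes interleukin 1 beta, had medians of 107 CPM in the esophagus, 22.8 in the colon and 74.7 in the bone marrow, the same order as Cd74. Malat1, a nuclear noncoding RNA, had medians of 598, 137 and 178 CPM, and Rn18s is ribosomal RNA.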

How the data were processed

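The authors deposited 1 table of raw counts per gene, without normalization, for 15 libraries, and all values used here come from it. Per the labels' protocols, RNA went through the Ovation RNA-Seq System V2, an amplification kit, and an NEB library preparation, so reads are not independent molecules. Per the submitters' processing notes, limma 3.50.3 was used, for a step they do not name. For the aligner, counter, genome build, annotation and use of strand, nothing is given in the sources used here. Libraries were assigned by the tissue label and the mouse number. All libraries with the same number come from the same mouse. Deviations from the group means correlated at -0.0198 to 0.0368 in 12 same-mouse pairs and at -0.0623 to 0.0698 in 36 other pairs. Nothing says that a mouse gave more than 1 library per site. The p-values measure the spread between libraries of a site, in which differences between mice and between library preparations cannot be told apart. The fit without a block does not use that some mice gave libraries at every site.

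Genes were filtered by filterByExpr (at least 10 counts in enough libraries and 15 in all), leaving 10357, scaled by TMM and fitted over all 15 libraries in edgeR 4.0.16 (R 4.3.3) by the robust quasi-likelihood test without a block, with 12 residual degrees of freedom and a common biological coefficient of variation of 0.817. P-values were adjusted by Benjamini and Hochberg over all genes tested and called under 0.05. SE is a standard error, computed from a log2 fold change and its F statistic. The sex difference was fitted with limma 3.58.1 (voom, tissue as a term, mouse as a random block). CPM used the tested genes' library size times the TMM factor for every gene. Other steps used Python 3.11.15, numpy 2.4.6, scipy 1.17.1 and pandas 2.3.3. The code of the fits was run on simulated counts with less spread between libraries than the real ones, which does not show its power for the class II genes.

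Exonic lengths and gene classes came from GENCODE M21, matched by stable identifier for 26299 genes (99.75%). As the build of the counts is not given, the promoter coordinates are RefSeq's on GRCm38.p6. The genes, pathway lists and markers were chosen with earlier results of these data known. The text names all 9 genes, the pathway genes called or among the 4 highest tested of a list (1 of them is not reported here), and the 5 genes most alike by Spearman's rho. Nfyb, Ifi30, Lgmn and the single macrophage and monocyte markers were named after their values were seen. Alternatives were other scalings (DESeq2 size factors, TMMwsp, library size alone), no filter, DESeq2 1.42.0, limma voom with quality weights, mouse as a fixed or random block, fewer groups or mice, and omission of each library. Omission of the 3 libraries above 2% mitochondrial counts was added after seeing the data.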

Additional observations from a re-analysis of the deposited data

Results flagged for a closer look

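Of 30 groups of values (the 9 genes and their sum, each at 3 sites), 3 had a library whose gap to the next was large for the range of its group, a criterion that chance meets in about 1 in 20 groups. Cd74 was 402 CPM in the bone marrow library of mouse 6, and the next was 135 CPM. That library also had the highest macrophage and monocyte marker sum of bone marrow, at 622 CPM. In the esophagus, the library with the highest Cd74, that of mouse 3, had a marker sum of 433 CPM, where the esophagus libraries ranged from 408 to 972. H2-Ea was 708 CPM in the esophagus library of mouse 5, and the next was 302 CPM. H2-DMa was 125 CPM in the esophagus library of mouse 7, and the next was 28.2 CPM.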

How the results depend on the processing

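For esophagus against bone marrow, where 0 of the 6 tested genes were called, 2 were called with library size alone (H2-Aa and H2-Ab1) and 1 with DESeq2 (H2-Ab1), and leaving out each library gave 0 to 0. For colon against bone marrow, 0 called became 1 (Cd74) with limma voom quality weights and 1 without the 3 libraries above 2% mitochondrial counts, an alternative added after seeing the data, and 0 to 1 on leaving out each library. For esophagus against colon, 3 called became 1 with mouse as a fixed replicate block, 1 with mouse as a random replicate block and 1 with only mice 5 to 8, 2 with quality weights and without the 3 libraries above 2% mitochondrial counts, 4 with library size alone, DESeq2 and only the groups compared, and 1 to 4 on leaving out each library. With DESeq2 size factors it was 3, with H2-Aa in place of H2-Ea. The replicate block changed no other call of these genes against bone marrow. The count for M against F was 0 under every alternative run, including no replicate block, and that of the 18 further class II genes was 0 under every alternative run for the 3 tissue comparisons.

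The direction turned for H2-Eb1 in esophagus against bone marrow, -0.20 with mouse as a fixed replicate block and -0.24 with only mice 5 to 8 against 0.91, and for Ciita in colon against bone marrow, -0.0464 to 0.48 on leaving out each library against 0.15. The cause was not tested. No other of the 18 log2 fold changes turned.

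Of all genes, 86 were called for esophagus against bone marrow, beside 153 with no filter, 26 with quality weights and 147 with the random block. For colon against bone marrow 45 were called, beside 79 with no filter, 82 with DESeq2, 173 with quality weights, 80 with the fixed block, 139 with only the groups compared and 85 with only mice 5 to 8. For esophagus against colon 9 were called, 7 higher and 2 lower, beside 8 and 1 with DESeq2 size factors, 6 and 3 with TMMwsp, and in all 97 with no filter, 15 with DESeq2, 4 with quality weights, 4 with the fixed block, 16 with only the groups compared, 3 with only mice 5 to 8 and 3 without the 3 libraries above 2% mitochondrial counts. Depth limits the H2-DM genes, H2-Ea outside esophagus and Cd74 and H2-Ab1 in most colon libraries, which rest on few counts.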

Other observations

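H2-Eb2, a further class II beta chain gene that is not among the 9 and was chosen after its values were seen, had 0, 9, 6, 0, 8, 8 and 0 counts in the esophagus of mice 1, 2, 3, 5, 6, 7 and 8. In mice 5, 6, 7 and 8 it had 7, 10, 19 and 15 counts in colon and 8, 13, 17 and 2 in bone marrow. It did not pass the filter for testing, and the groups overlapped.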
